A study of Mus musculus with 4 samples.

Results

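Reactive astrocyte marker genes are transcripts that rise in mouse astrocytes after injury or inflammation. The 10 genes described here were chosen by symbol from a table of 54532 genes. The 7 pan-reactive markers, which rise after several kinds of insult, were Lcn2, Serpina3n, Steap4, Osmr, Cd44, Cp and S1pr3. The 3 markers of the A2 state, described in mice after ischaemia, were Emp1, S100a10 and Tm4sf1. Each symbol matched one protein-coding gene, and all 10 genes passed the filter on low counts.

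The data are RNA sequencing counts of mouse cells labelled as astrocytes. One group received an siRNA (a small RNA duplex that lowers the level of the transcript it matches) labelled NC, which the table's columns name as the control, and the other an siRNA against Ptbp1, the gene of a splicing repressor. Each group had 2 libraries, called NC siRNA 1 and 2 and Ptbp1 siRNA 1 and 2, with totals between 14557844 and 16009248 counts. The labels used here give no strain, age, time after transfection or origin of the cells. They also leave unsaid if the 2 libraries sharing a treatment were separate cultures, so each p-value reflects only how far these samples differ, and that spread may be technical.

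Reactive astrocytes enlarge, change their secretion and reshape the surrounding matrix. Cytokines of the interleukin-6 family, among them oncostatin M, act through the receptor subunit gp130 and the transcription factor STAT3, a main driver of the state, and NF-kB drives many of the inflammatory genes. The markers encode secreted proteins and metal-handling enzymes (Lcn2, Serpina3n, Cp, Steap4), receptors of the cell surface (Osmr, S1pr3, Cd44) and small membrane-associated proteins (Emp1, S100a10, Tm4sf1).

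None of the 10 genes was called changed with Ptbp1 siRNA. For the 8 genes other than Lcn2 and Steap4 the 95% intervals of the fold lay between 0.762 and 1.17. Lcn2, the gene of the iron-related protein lipocalin 2, had the largest fitted fold, 1.66, and also the largest spread between libraries of one group. A 5.09-fold range separated its highest and lowest library, where the range of those 8 genes was 1.07-fold to 1.22-fold. Serpina3n, the gene of a secreted protease inhibitor, had the lowest fold of the 10, 0.879.

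The knockdown itself was partial. Ptbp1 measured 300.4 and 295 CPM (counts scaled to a common library total) in the NC siRNA libraries against 203 and 196 CPM in the Ptbp1 siRNA libraries, which is 33.1% lower (log2 fold change -0.58, edgeR quasi-likelihood adjusted p = 0.00127). Of the 50-base stretches of the Ptbp1 transcripts, 18.3% are found in 5 other genes as well, and Gm17134 shares the most of them. The part of this sharing in the measured Ptbp1 level was not tested. Of 16368 genes tested, 4 passed an adjusted p of 0.05, a background of 0.0244% (0.00611% higher and 0.0183% lower), and 0 of the 10 marker genes did. By the adjusted p of the authors' deposited table, 0.0148% of genes passed the same threshold and again 0 of the 10. At an unadjusted p under 0.05 the background was 3.98% of the 16368 tested genes with edgeR. With DESeq2 it was 0.512% of 29505 genes, which include the genes with low counts that the edgeR filter left out. Of the 10 marker genes, 0 were past that threshold with either tool. The groups did not overlap for 3 of the 10 genes, Osmr and Cd44 with Ptbp1 siRNA higher and Serpina3n with it lower, against 31.5% of all tested genes. The median log2 fold change of the 10 genes was 0.01, beside 0.00036 over all tested genes, with 5 values positive and 5 negative, where 50.2% of tested genes were positive. With 2 libraries against 2, an exact permutation test cannot go below p = 0.333, so no such test is given for single genes.

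**Figure D1:**
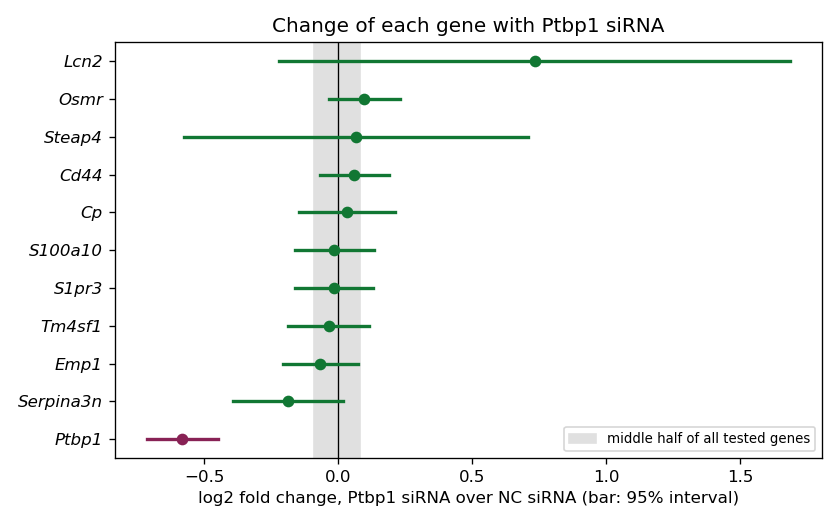
Log2 fold change of each marker gene and of Ptbp1 (Ptbp1 siRNA over NC siRNA, x axis) from the edgeR fit on 2 libraries per group, with bars for 95% intervals and a grey band for the interquartile range of all tested genes (-0.09 to 0.08). The interval of Ptbp1 lies below 0, the intervals of all 10 marker genes include 0, and those of Lcn2 and Steap4 are the widest.

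The cells carried most markers of their label and also some markers of other cell types. Of 10 astrocyte markers 9 were tested, with Aqp4, the water channel gene, at 559 to 646 CPM, while Gjb6, a gap junction gene, had between 0 and 4 counts per library. The summed level of the astrocyte markers was 1687 to 1772 CPM with NC siRNA and 1579 to 1746 CPM with Ptbp1 siRNA. For 10 fibroblast and pericyte markers it was 6038 to 6312 and 5457 to 6411 CPM. Most of that came from Acta2, an actin gene, at 3376 to 3926 CPM over the 4 libraries. Of the 9 tested, 7 had a negative log2 fold change, 2 a positive one, and 0 were called. With edgeR 2 had an unadjusted p under 0.05 (background 3.98%), the collagen genes Col1a1 (log2 fold change -0.355) and Col1a2 (-0.25). For 10 microglia and macrophage markers the sum was 864 to 874 and 828 to 870 CPM. Lyz2, a lysozyme gene, gave most of it at 649 to 672 CPM. For 10 endothelial markers it was 132 to 146 and 120 to 144 CPM, with Cldn5, the gene of the endothelial tight-junction protein claudin 5, at 0 in every library. For 10 choroid plexus markers it was 497 CPM in NC siRNA 2 and between 124 and 139 CPM in the other libraries. Across the 4 libraries the oligodendrocyte lineage markers summed to 358 to 406 CPM, the neuron markers to 247 to 265 CPM and the ependymal markers to 363 to 407 CPM. Of the 10 neuron markers 5 were tested, and most of their sum came from Map2 (146 to 166 CPM) and Stmn2 (81.5 to 85.0 CPM). Negative log2 fold changes were also the more frequent in the other lists, where 0 markers were called. They were 7 of 9 tested for astrocyte, for microglia and macrophage, and for oligodendrocyte lineage markers. For choroid plexus markers they were 7 of 7, for ependymal 6 of 8, for endothelial 5 of 7 and for neuron 3 of 5. With edgeR an unadjusted p under 0.05 was found for 3 choroid plexus markers. It was found for 1 astrocyte, 1 oligodendrocyte lineage and 1 ependymal marker, and for 0 in the remaining lists. Fibroblasts, microglia and endothelial cells are known to express some of the marker genes, such as Cd44, Emp1 and Tm4sf1. The part of these cells in the levels below was not tested, and fewer cells of a type cannot be told apart from less RNA per cell.

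Levels between genes are compared here on the deposited FPKM scale (fragments scaled to gene length and library total). The genes spanned a wide range. S100a10 was highest at a mean of 212 FPKM over the 4 libraries, above 99.1% of tested genes. Cd44 followed at 69.4 FPKM and S1pr3 at 43.0 FPKM. Emp1 and Tm4sf1, at 37.6 FPKM each, overlapped in their libraries and cannot be ordered. Osmr stood at 24.4 FPKM, Serpina3n at 15.9 FPKM and Cp at 8.92 FPKM. Lcn2 and Steap4 were lowest, at 1.93 and 1.64 FPKM, and overlapped. Except for the pairs named as overlapping, every library of a gene lay above every library of the next gene in this order. Lcn2 lay above 30.0% of tested genes and Steap4 above 27.3%.

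**Figure D2:**
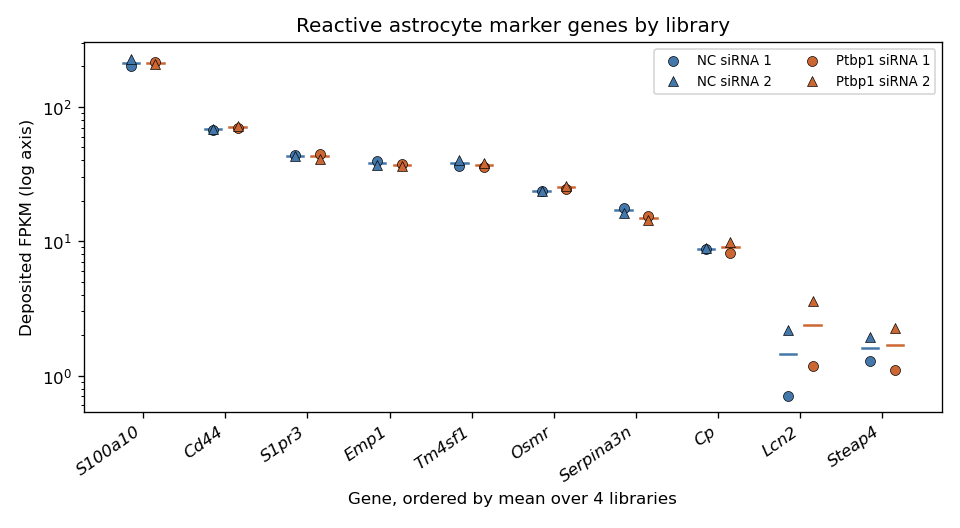
Deposited FPKM (y axis, log scale) of the 10 marker genes in each of the 4 libraries, with a line for the mean of each group of 2 libraries. S100a10 stands at 201 to 226 FPKM, the libraries of most genes lie on top of each other, and those of Lcn2 (0.710 to 3.62 FPKM) and Steap4 (1.11 to 2.24 FPKM) spread apart, with the libraries numbered 2 higher in both groups.

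Among the secreted and metal-handling proteins, Lcn2 (ENSMUSG00000026822; GRCm38 chromosome 2, 32384633 to 32388252, minus strand) encodes lipocalin 2, which binds iron-carrying siderophores and is released by reactive astrocytes. It had 30 and 87 counts with NC siRNA and 45 and 142 with Ptbp1 siRNA. These correspond to 1.87 (95% exact Poisson interval 1.26 to 2.67), 5.80 (4.65 to 7.16), 3.10 (2.26 to 4.15) and 9.53 CPM (8.03 to 11.2) in the same order, intervals that cover counting error only. The libraries numbered 2 were high in both groups and those numbered 1 were low, and the groups overlapped. Library 2 stood 3.10-fold above library 1 with NC siRNA and 3.07-fold above it with Ptbp1 siRNA, and in neither group did the counting intervals of the pair overlap. The group means were 3.84 ± 2.78 and 6.31 ± 4.55 CPM (SD, n = 2), with a log2 fold change of 0.73 (SE 0.45, 95% interval -0.22 to 1.68, edgeR adjusted p = 1.00). The value depended on single libraries. Each fit without a library leaves one arm with 1 library, which is assumed to vary like the other arm, so its p-value does not reflect the spread within both groups. Lcn2 passed the test without NC siRNA 2 (log2 fold change 1.75, edgeR adjusted p = 0.000297) and also when Ptbp1 siRNA 1 was left out (1.32, adjusted p = 0.00059), stood at 0.12 (adjusted p = 0.997) without NC siRNA 1, and turned to -0.30 (adjusted p = 1.00) without Ptbp1 siRNA 2. The estimated prior degrees of freedom were infinite in these 4 fits, against 14.0 in the fit of all libraries.

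Steap4 (ENSMUSG00000012428; chromosome 5, 7960457 to 7982213, plus strand) encodes a membrane metalloreductase that reduces iron and copper. It had 65 and 92 counts with NC siRNA and 51 and 106 with Ptbp1 siRNA, or 4.05 and 6.14 against 3.51 and 7.11 CPM. As for Lcn2, the libraries numbered 2 were the higher ones in both groups, 1.51-fold and 2.02-fold above those numbered 1, and the groups overlapped. The counting intervals overlapped between the NC siRNA libraries (3.13 to 5.17 and 4.95 to 7.53 CPM) but not between the Ptbp1 siRNA libraries (2.62 to 4.62 and 5.82 to 8.60 CPM). The log2 fold change was 0.07 (SE 0.30, 95% interval -0.58 to 0.71, edgeR adjusted p = 1.00), which leaves a fold between 0.671 and 1.64. It turned to -0.21 without NC siRNA 1 and to -0.53 without Ptbp1 siRNA 2, and was 0.39 without NC siRNA 2 and 0.48 without Ptbp1 siRNA 1, with no call in any of these fits.

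**Figure D3:**
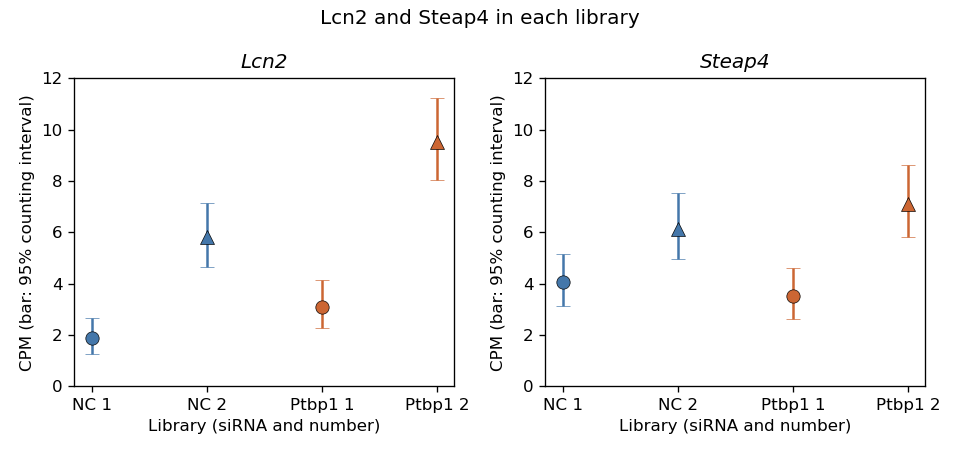
CPM (y axis) of Lcn2 (left) and Steap4 (right) in each library (x axis), with bars for 95% exact Poisson intervals that cover counting error only. Lcn2 stands at 1.87 and 3.10 CPM in the libraries numbered 1 and at 5.80 and 9.53 CPM in those numbered 2, and Steap4 is also higher in the libraries numbered 2.

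The difference between libraries of one group was shared by few genes at the size seen in Lcn2. In direction alone, library 2 was above library 1 in both groups for 5 of the 10 marker genes, beside 27% of tested genes. It was below in both groups for 3 marker genes, beside 28.4% of tested genes. Of all tested genes, 40 (0.244%) had library 2 at least 1 log2 unit above library 1 in both groups, and 50 (0.305%) had it at least as far below. Lcn2 was among the 40, at a mean of 5.08 CPM over the 4 libraries. The predicted gene Gm10241, named after its values were seen, was higher, and the remaining 38 had means of at most 2.68 CPM, where counting error is large. A range between libraries of at least 5.09-fold was found in 1.09% of tested genes, and one of at least the 2.02-fold of Steap4 in 9.91%. The summed astrocyte markers were lower in the libraries numbered 2 (1687 and 1579 CPM) than in those numbered 1 (1772 and 1746 CPM), and the fibroblast and pericyte markers were too (6038 and 5457 against 6312 and 6411 CPM), as were the endothelial, oligodendrocyte lineage and neuron markers. The summed ependymal markers were higher in the libraries numbered 2 of both groups (407 and 380 against 390 and 363 CPM), and so were the choroid plexus markers (497 and 131 against 139 and 124 CPM). Members of these lists did not all move together. Foxj1 gave most of the ependymal sum (337 and 317 against 325 and 306 CPM). Ccdc153, Tmem212 and Cfap126 were also higher in both groups. Rsph1 was lower in both, Pifo and Dynlrb2 in NC siRNA 2 only, and Rarres2 in Ptbp1 siRNA 2 only. Of the tested choroid plexus markers, Ttr, Enpp2, Otx2 and Cldn2 were higher in both groups. Folr1, Aqp1 and Clic6 were lower in Ptbp1 siRNA 2. The microglia and macrophage markers were higher in NC siRNA 2 (874 against 864 CPM) and lower in Ptbp1 siRNA 2 (828 against 870 CPM). The part of any of these cell types in the levels of Lcn2 and Steap4 was not tested.

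The sequences before the RefSeq start sites of these genes are shown because Lcn2 and Steap4 stood high and low in the same libraries. Cd44, which varied least between libraries, is added for comparison. It too was higher in the libraries numbered 2, by 1.02-fold with NC siRNA and 1.03-fold with Ptbp1 siRNA. The sequences are from RefSeq (GRCm38.p6), start 250 bases before the RefSeq start site and run 5′ to 3′ on the strand of the gene. Each is cut at the first annotated UTR of the gene in GENCODE M21 that begins inside it. Capitals mark matches, on either strand, to letters of known motifs: TTCNNNGAA for STAT factors, TTGCNNAA for C/EBP factors, TGANTCA for AP-1, GGG and TTCC with any 3 letters between them for NF-kB and TATAAA for the TATA box.
Lcn2: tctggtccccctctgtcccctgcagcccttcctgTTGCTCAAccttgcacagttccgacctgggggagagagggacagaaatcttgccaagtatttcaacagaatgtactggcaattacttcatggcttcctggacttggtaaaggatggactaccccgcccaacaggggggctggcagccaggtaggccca
Steap4: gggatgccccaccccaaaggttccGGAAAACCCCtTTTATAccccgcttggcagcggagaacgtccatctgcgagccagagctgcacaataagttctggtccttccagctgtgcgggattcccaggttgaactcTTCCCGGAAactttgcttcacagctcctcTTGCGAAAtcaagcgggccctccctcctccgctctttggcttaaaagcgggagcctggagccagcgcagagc
Cd44: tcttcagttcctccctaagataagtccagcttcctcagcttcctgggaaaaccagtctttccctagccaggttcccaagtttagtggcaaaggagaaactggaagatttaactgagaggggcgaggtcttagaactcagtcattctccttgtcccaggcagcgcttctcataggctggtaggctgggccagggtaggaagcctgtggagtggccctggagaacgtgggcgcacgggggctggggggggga
The Lcn2 stretch is chr2:32387798-32387989 on the minus strand, 192 bases, and lies inside the Lcn2 gene as the deposited table gives it, since a longer annotated transcript starts further upstream. An exon of that transcript covers most of the stretch. The Steap4 stretch is chr5:7960222-7960456 on the plus strand, 235 bases, and holds an exon of the lincRNA Gm30835 of the opposite strand. The Cd44 stretch is chr2:102901666-102901915 on the minus strand, 250 bases.

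The Lcn2 stretch held 1 match, TTGCTCAA for C/EBP, which lies within that exon. Letters for C/EBP are in 7.84% of all 32851 promoter windows at the same length. The Steap4 stretch held 4 matches that do not overlap each other: TTCCCGGAA for STAT (in 6.62% of windows at that length), TTGCGAAA for C/EBP (9.17%), and, on the opposite strand, the letters for NF-kB (4.16%) and the TATA box (11.9%). The Cd44 stretch held 0 matches to the 5 motifs. RefSeq windows of the full 300 bases were found for 9 of the 10 genes, all but S100a10. Cp and Emp1 had more than 1 window, 11 in all for the 9 genes, and the percentages count windows. STAT letters were in those of Steap4 and Emp1 (8.30% of all windows). C/EBP letters were in those of Lcn2, Cp and Steap4 (10.8%), and AP-1 letters in those of Cp, Emp1 and Osmr (7.81%). NF-kB letters were in those of Tm4sf1, Steap4 and Serpina3n (5.56%), and the TATA box in those of Cp and Steap4 (13.6%). Emp1 and Cp varied 1.11-fold and 1.20-fold between libraries, and the S1pr3 and Cd44 windows held no match. A link between matches and the spread between libraries was not tested. A match describes the letters and does not show that a factor binds there.

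Serpina3n (ENSMUSG00000021091; chromosome 12, 104406729 to 104414329, plus strand) encodes a secreted inhibitor of serine proteases. It had 584 and 507 counts with NC siRNA and 463 and 445 with Ptbp1 siRNA. On the CPM scale these are 36.4 and 33.8 against 31.9 and 29.9, so that both Ptbp1 siRNA libraries were below both NC siRNA libraries. The log2 fold change of -0.19 (SE 0.097, 95% interval -0.39 to 0.02) did not pass the test, with an unadjusted p of 0.0725 and an edgeR adjusted p of 1.00, and the interval leaves a fold between 0.762 and 1.01. Serpina3n belongs to a cluster of near copies, and 6.90% of the 50-base stretches of its transcript are found in 7 other genes as well, and the pseudogene Serpina3e-ps shares the most of them. The 10 listed paralogs, which do not include Serpina3e-ps, together stood at 1.03 to 2.08 CPM. Most of it came from Serpina3g, and 6 of the 10 were at 0 in every library. Serpina3n itself measured at least 29.9 CPM in every library.

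Cp (ENSMUSG00000003617; chromosome 3, 19957054 to 20009145, plus strand) encodes ceruloplasmin, the copper-holding enzyme that oxidises iron and that astrocytes carry on their surface. It measured 83.7 and 85.9 CPM in the NC siRNA libraries against 78.7 and 94.7 CPM in the Ptbp1 siRNA libraries. The Ptbp1 siRNA libraries lay on either side of the NC siRNA libraries, and the log2 fold change was 0.03 (SE 0.084, 95% interval -0.15 to 0.21), which turned to -0.11 without Ptbp1 siRNA 2. Choroid plexus is known to express Cp too. In NC siRNA 2, where its markers summed to 497 CPM, Cp measured 85.9 CPM. A single library cannot show the part of choroid plexus cells in the level of Cp, which was not tested. Hps3 overlaps Cp on the opposite strand and had 418 to 439 counts per library. The labels used here do not tell if counting was stranded.

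Of 20 further genes of iron and copper handling 19 were tested, 0 were called by edgeR, 0 had an unadjusted p under 0.05, and the median log2 fold change was 0.01. The highest were the ferritin genes Fth1 and Ftl1, which encode the iron store of the cell. Fth1 had a log2 fold change of -0.06 (SE 0.060), Ftl1 one of -0.03 (SE 0.061), and Lrp2, the gene of a large endocytic receptor that takes up lipocalin 2, one of 0.08 (SE 0.078). On the FPKM scale the related metalloreductase genes Steap1, Steap2 and Steap3 stood at 7.43, 3.30 and 2.97, each above the 1.64 of Steap4, and Heph, which encodes the membrane homologue of ceruloplasmin, at 0.251 beside the 8.92 of Cp. These 4 genes were named after their values were seen.

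Among the receptors, Osmr (ENSMUSG00000022146; chromosome 15, 6813577 to 6874969, minus strand) encodes the subunit that pairs with gp130 to bind oncostatin M. It measured 288 and 287 CPM in the NC siRNA libraries against 299.5 and 315 CPM in the Ptbp1 siRNA libraries, and both libraries with Ptbp1 siRNA were the higher ones. The log2 fold change was 0.10 (SE 0.062, 95% interval -0.03 to 0.23, unadjusted p = 0.135, edgeR adjusted p = 1.00), a fold between 0.977 and 1.17. Of 22 listed genes of the oncostatin M and STAT3 pathway 20 were tested, 0 were called by edgeR, 2 had an unadjusted p under 0.05, and the median log2 fold change was -0.01. The 3 with the highest counts were Il6st, the gene of gp130, at a log2 fold change of -0.02 (SE 0.066), the phosphatase gene Ptpn11 at -0.01 (SE 0.062) and Stat3 at 0.04 (SE 0.062). On the FPKM scale Il6st stood at 32.7, Osmr at 24.4 and Osm, the ligand, at 4.25. The log2 fold change of Osm was 0.16 (SE 0.17), and that of Lif, another ligand that signals through gp130, was 0.18 (SE 0.068, unadjusted p = 0.0192, edgeR adjusted p = 1.00). Il31ra, which pairs with Osmr in the interleukin-31 receptor, had 3 to 8 counts per library and was below the filter. Osm, Lif and Il31ra were named after their values were seen.

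S1pr3 (ENSMUSG00000067586; chromosome 13, 51408639 to 51422797, plus strand) encodes a G protein-coupled receptor for sphingosine 1-phosphate. It measured 196 and 192 CPM in the NC siRNA libraries against 201 and 182 CPM in the Ptbp1 siRNA libraries. The Ptbp1 siRNA libraries enclosed the NC siRNA libraries, and the log2 fold change was -0.02 (SE 0.068, 95% interval -0.16 to 0.13). Its sign turned to 0.055 without Ptbp1 siRNA 2. Per length, S1pr3 was the highest of the receptor genes of this lipid, at 43.0 FPKM beside 20.4 for S1pr1 and 9.15 for S1pr2, while S1pr4 and S1pr5 had at most 5 counts per library. These receptor genes were named after their values were seen. Of 17 listed genes of the pathway, which include S1pr1 and S1pr2 but not S1pr3, 15 were tested, 0 were called by edgeR, 0 had an unadjusted p under 0.05, and the median log2 fold change was -0.03. The 3 with the highest counts were Gnai2, a G protein subunit gene, at a log2 fold change of -0.08 (SE 0.061), Sgpl1, the gene of the lyase that degrades the lipid, at 0.09 (SE 0.061), and Rhoa, a GTPase gene downstream of the receptors, at -0.04 (SE 0.066). The lincRNA Gm32834 lies over S1pr3 on the opposite strand and had 3 to 17 counts per library.

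Cd44 (ENSMUSG00000005087; chromosome 2, 102811141 to 102901665, minus strand) encodes the hyaluronan receptor CD44. It measured 458 and 468 CPM in the NC siRNA libraries against 476 and 489 CPM in the Ptbp1 siRNA libraries, so the groups did not overlap. The difference was small. The log2 fold change of 0.06 (SE 0.060, 95% interval -0.07 to 0.19, edgeR adjusted p = 1.00) leaves a fold between 0.954 and 1.14. CD44 is known for its many splice forms, which counts per gene do not separate. Of 16 listed ligands, partners and hyaluronan enzymes 15 were tested, 0 were called by edgeR, 1 had an unadjusted p under 0.05, and the median log2 fold change was 0.04. The highest were the genes of its cytoskeletal linkers, Msn at a log2 fold change of 0.09 (SE 0.060), Ezr at 0.03 (SE 0.064) and Rdx at 0.01 (SE 0.061). The member with an unadjusted p under 0.05 was Mmp14, a membrane protease gene, at -0.18 (SE 0.073, unadjusted p = 0.022, edgeR adjusted p = 1.00).

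Among the A2 markers, S100a10 (ENSMUSG00000041959; chromosome 3, 93555080 to 93564643, plus strand) encodes the small protein that forms a complex with annexin A2 at membranes. It measured 245 and 275 CPM in the NC siRNA libraries against 263 and 252 CPM in the Ptbp1 siRNA libraries, both of the latter between the NC siRNA libraries. The log2 fold change was -0.01 (SE 0.069, 95% interval -0.16 to 0.13) and its sign turned without NC siRNA 2 (0.07) and without Ptbp1 siRNA 2 (0.02). Of 14 listed annexin and S100 genes 14 were tested, 0 were called by edgeR, 0 had an unadjusted p under 0.05, and the median log2 fold change was -0.02. Anxa2, the gene of the partner protein, had a log2 fold change of 0.03 (SE 0.065), Ahnak, which encodes a scaffold bound by the complex, one of 0.04 (SE 0.076), and Anxa5 one of -0.01 (SE 0.067). On the FPKM scale Anxa2 stood at 165 and S100a10 at 212.

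Emp1 (ENSMUSG00000030208; chromosome 6, 135362545 to 135383173, plus strand) and Tm4sf1 (ENSMUSG00000027800; chromosome 3, 57285611 to 57301988, minus strand) encode small proteins that cross the membrane several times, of the PMP22 and L6 families. Emp1 measured 238 and 221 CPM in the NC siRNA libraries against 224 and 215 CPM in the Ptbp1 siRNA libraries, with overlapping groups and a log2 fold change of -0.07 (SE 0.066, 95% interval -0.20 to 0.07). Tm4sf1 measured 151 and 167 CPM in the NC siRNA libraries against 149.5 and 161 CPM in the Ptbp1 siRNA libraries. Its groups overlapped too, with a log2 fold change of -0.04 (SE 0.072, 95% interval -0.19 to 0.12), whose sign turned to 0.04 without NC siRNA 2 and to 0.02 without Ptbp1 siRNA 1. Of 12 listed genes of these and related tetraspan families 8 were tested, 0 were called by edgeR, 0 had an unadjusted p under 0.05, and the median log2 fold change was -0.03. The highest were the tetraspanin genes Cd81 at a log2 fold change of -0.03 (SE 0.059) and Cd63 at 0.02 (SE 0.061), and the myelin protein gene Pmp22 at 0.05 (SE 0.081). All 3 A2 markers had a negative log2 fold change, with a median of -0.04, and for each of them the groups overlapped.

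The remaining genes of the reactive lists were not called either. Of 6 other pan-reactive genes 6 were tested, 0 were called by edgeR, 0 had an unadjusted p under 0.05, and the median log2 fold change was -0.08. The highest were the intermediate filament genes Vim, at a log2 fold change of 0.03 (SE 0.058), and Gfap, at -0.09 (SE 0.075), and the chemokine gene Cxcl10, at -0.07 (SE 0.097). Cxcl10 measured 498 and 664 CPM in the NC siRNA libraries against 526 and 578 CPM in the Ptbp1 siRNA libraries. Its libraries numbered 2 were the higher ones in both groups, as for Lcn2 and Steap4, by less. That direction was found in 27% of tested genes. Of 8 other A2 genes 7 were tested, 0 were called by edgeR, 0 had an unadjusted p under 0.05, and the median was -0.05. Clcf1, the gene of a ligand of the interleukin-6 family, measured 175 and 185 CPM in the NC siRNA libraries against 191 and 204 CPM in the Ptbp1 siRNA libraries, a log2 fold change of 0.14 (SE 0.067, unadjusted p = 0.0596). For Cd109, a surface protein gene, the log2 fold change was -0.05 (SE 0.065), and for Ptgs2, the gene of cyclooxygenase 2, it was 0.08 (SE 0.072).

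Of 12 genes of the A1 state, described in mice after inflammation, 11 were tested and 0 were called by edgeR, with a median log2 fold change of -0.01. An unadjusted p under 0.05 was found for 3 of the 11, beside the background of 3.98%, in both directions. For Iigp1, an interferon-induced GTPase gene, the log2 fold change was -0.27 (SE 0.092, unadjusted p = 0.00998). Fkbp5, a glucocorticoid-responsive gene, had one of 0.38 (SE 0.15, unadjusted p = 0.0206), and Srgn, a proteoglycan gene of blood-derived cells and microglia, one of 0.42 (SE 0.19, unadjusted p = 0.0458), each with an edgeR adjusted p of 1.00. Fkbp5 and Srgn were named after their values were seen. H2-D1, a class I antigen gene, led this list by count at a log2 fold change of 0.06 (SE 0.082), and Gbp2, an interferon-induced GTPase gene, was next at -0.01 (SE 0.076).

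**Figure D4:**
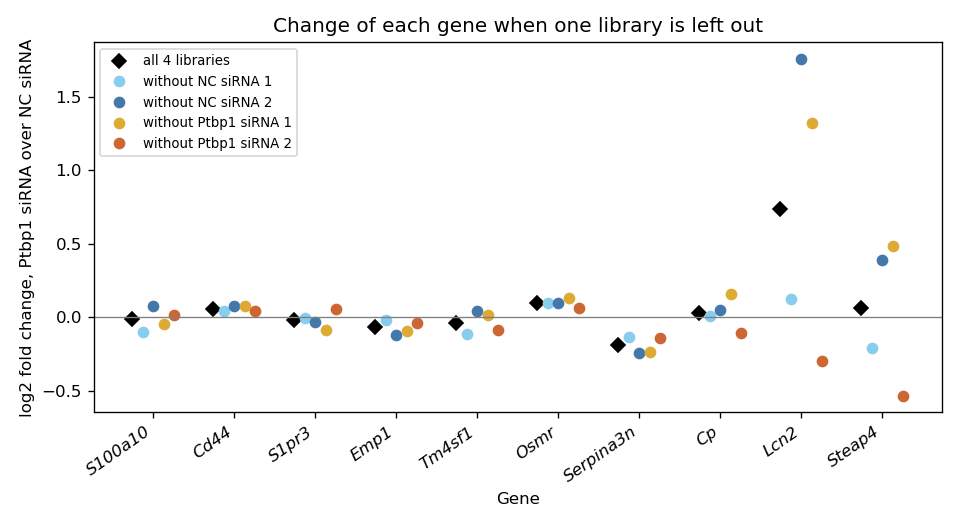
Log2 fold change of each marker gene (y axis, Ptbp1 siRNA over NC siRNA) with all 4 libraries (diamonds) and with each library left out in turn (circles). Serpina3n, Osmr, Cd44 and Emp1 keep their sign in all 5 fits, and Lcn2 runs from -0.30 without Ptbp1 siRNA 2 to 1.75 without NC siRNA 2.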

How the data were processed

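RNA was sequenced from 4 libraries of mouse astrocytes, 2 per siRNA; per the labels' protocols, total RNA was purified with a Qiagen kit and libraries were made with a SMARTer mRNA kit. Per the submitters' processing notes GRCm38 (mm10) was used. For the aligner, counter and annotation release nothing is stated in the labels used here. The authors deposited whole-number counts per gene, not normalized, and FPKM values scaled to gene length and a library size. The authors also deposited group means (a signal of scaled counts), a log2 fold change and a p-value with its adjustment; in the authors' deposited table the log2 fold change was 0.72 for Lcn2 and -0.19 for Serpina3n, both with an adjusted p of 1.00, and the group means were not used.

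Differences were fitted to the counts in edgeR 4.0.16 under R 4.3.3 (quasi-likelihood test, TMM, filterByExpr, group as the only term; Benjamini-Hochberg over 16368 genes, two-sided, threshold 0.05). The fit had 2 residual degrees of freedom and 14.0 prior degrees of freedom. CPM use TMM-scaled library sizes; standard errors and 95% intervals come from the quasi-F statistic. The test was checked on simulated counts. Counts can include PCR copies. Alternatives were RLE scaling, no scaling factor, DESeq2 1.42.0, limma 3.58.1 on log2(FPKM + 1) and log2(FPKM + 0.1), no count filter, a mean of at least 1 CPM, a block for the replicate number, and each library left out in turn. Promoter windows hold 250 bases before and 50 after the RefSeq start (GRCm38.p6), and were matched by symbol. Genes sharing 50-base stretches were found in GENCODE M21 (GRCm38). The marker genes, the lists and the rule for naming genes (all 10 marker genes, Ptbp1, and per list the 3 members with the highest counts and any called member) were chosen with earlier results of these data known. The values of 1 gene of the lists are not reported here.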

Additional observations from a re-analysis of the deposited data

How the results depend on the processing

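Over 12 alternatives the 10 marker genes gave 120 values, of which 111 kept their direction and 2, both for Lcn2, passed the threshold. All 9 values that changed sign came from leaving out a library, 5 of them Ptbp1 siRNA 2. For Lcn2 the range on leaving out a library was -0.30 to 1.75, for Steap4 -0.53 to 0.48, for Cp -0.11 to 0.16, for S1pr3 -0.088 to 0.055, for S100a10 -0.10 to 0.074 and for Tm4sf1 -0.11 to 0.041 (log2 fold changes); the cause was not tested. The number of marker genes called was 0 to 1 on leaving out a library and 0 under the other alternatives, and their median log2 fold change was -0.062 to 0.062. The number of all genes called moved from 4 to 34 to 75 on leaving out a library, 50 with no filter on low counts, and 0 with limma on log2(FPKM + 1) or log2(FPKM + 0.1), where Ptbp1 had log2 fold changes of -0.57 (adjusted p = 0.735) and -0.58 (adjusted p = 0.57), and 835 and 927 genes had an unadjusted p under 0.05.

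The groups share replicate numbers, but the labels do not say what a number marks, and with 2 pairs the deviations of same-numbered libraries (correlation 0.106 across genes, which are not independent replicates) do not settle a pairing. With the replicate number as a block 36 genes were called and 0 of the 10 marker genes. That fit had 1 residual and 61.0 prior degrees of freedom, against 2 and 14.0 in the main fit. Its standard errors therefore rest mostly on the spread estimated across all genes. Under the block Lcn2 had a log2 fold change of 0.72 (SE 0.26, unadjusted p = 0.00722, edgeR adjusted p = 0.453) and Serpina3n one of -0.19 (SE 0.091, unadjusted p = 0.046, edgeR adjusted p = 0.761), and no other marker gene had an unadjusted p under 0.05. At 30 to 142 counts per library, Lcn2 and Steap4 are limited by counting and by the spread between libraries, and their intervals leave room for folds of up to 3.21 and 1.64.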
